A study of Homo sapiens with 12 samples.

Results

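The clusters of zinc finger genes on human chromosome 19 were taken as all H3K27ac peaks inside 4 spans of the build hg19, and overlapping peaks of the 6 deposited lists, by as little as 1 base, were merged into 1 region. This gave 339 regions of the 48876 in the series, against 2024 on the rest of chromosome 19, and no region crossed the edge of a span. The spans run from 19.8 to 24.4 Mb beside the centromere (pericentromeric, 51 regions), from 36.7 to 38.4 Mb (proximal long arm, 29 regions), from 44.2 to 45.0 Mb (middle long arm, 18 regions) and from 52.0 to 59.1 Mb (distal long arm, 241 regions). The libraries came from SUDHL4, a line of human diffuse large B-cell lymphoma, as single clones edited with CRISPR/Cas9 and grown as stable lines. Each genotype had 2 clones: controls edited at PPP1R12C and labelled wild type for CREBBP (WT), CREBBP knock-outs (CREBBP-KO, cut in exon 15 or exon 20) and EP300 knock-outs (EP300-KO, cut in exon 17 or exon 24). The first CREBBP-KO clone bears another exon number in its name than in its protocol. PPP1R12C itself lies inside the distal span, so the edited locus of the control clones is part of the sequence described. Every clone descends from 1 cell, so all p-values measure the spread between clones, and 2 clones against 2 cannot give an exact permutation p below 0.333.

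H3K27ac, acetylated lysine of histone H3, marks active promoters and enhancers, and CREBBP and EP300 are the paralogous enzymes that deposit most of it. Many genes of these spans encode KRAB zinc finger proteins, DNA-binding repressors that arose by tandem duplication and that silence transposable elements through the corepressor TRIM28. The bodies of such genes are known to carry repressive H3K9me3 while their promoters remain active in many tissues.

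In the RefSeq gene table of another build (GRCh38.p14, used for names and order only), 34 of the 36 protein-coding genes from ZNF253 to ZNF254 have zinc finger names, so the name zinc finger cluster fits that span. The long-arm spans also hold many genes of other kinds. The promoters of this group are close copies of each other, and 4 are shown because their windows differed in acetylation. For ZNF85 and ZNF430 no difference between genotypes passed the test described further on. In the ZNF430 window both EP300-KO clones (1554 and 1513 covered bases) still lay above all other clones. ZNF708 had a difference between the knock-outs, and ZNF208 had no peak. They are the 250 bases before the annotated start on the gene's strand, from RefSeq (GRCh38.p14), with each CCAAT, the letters bound by the factor NF-Y, in capitals. In that build they lie at chr19:20923001-20923250 (plus strand), chr19:21020407-21020656 (plus), chr19:21329411-21329660 (minus) and chr19:22010944-22011193 (minus).
ZNF85: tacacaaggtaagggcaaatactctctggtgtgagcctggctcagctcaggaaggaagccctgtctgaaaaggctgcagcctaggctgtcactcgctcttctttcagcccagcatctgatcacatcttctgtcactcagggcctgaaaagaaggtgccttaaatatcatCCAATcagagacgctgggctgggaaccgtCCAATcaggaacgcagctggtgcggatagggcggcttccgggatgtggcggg
ZNF430: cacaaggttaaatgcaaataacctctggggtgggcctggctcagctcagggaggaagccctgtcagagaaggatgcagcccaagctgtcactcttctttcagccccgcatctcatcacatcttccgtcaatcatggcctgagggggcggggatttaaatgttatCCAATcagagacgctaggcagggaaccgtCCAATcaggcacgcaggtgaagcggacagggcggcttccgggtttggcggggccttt
ZNF708: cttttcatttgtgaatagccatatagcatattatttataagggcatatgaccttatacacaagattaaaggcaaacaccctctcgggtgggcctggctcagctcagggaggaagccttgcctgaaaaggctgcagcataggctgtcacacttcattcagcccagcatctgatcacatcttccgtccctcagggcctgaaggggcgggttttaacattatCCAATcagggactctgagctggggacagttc
ZNF208: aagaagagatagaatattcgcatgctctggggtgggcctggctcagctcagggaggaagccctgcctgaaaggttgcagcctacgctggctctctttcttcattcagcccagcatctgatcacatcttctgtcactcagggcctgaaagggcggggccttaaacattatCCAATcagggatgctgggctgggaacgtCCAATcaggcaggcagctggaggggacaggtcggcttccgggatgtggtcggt
All 16 listed pericentromeric genes with a promoter entry held CCAAT on the gene's strand, and 10 held it at least 2 times. Over 22180 promoters of protein-coding genes 18.2% had CCAAT on that strand and 4.11% had it at least 2 times. Among 287 promoters of chromosome 19 genes with zinc finger names, these 16 included, the shares were 35.9% and 12.2%. Of 13 promoters of the listed long-arm zinc finger genes, 3 had it on that strand and 0 at least 2 times. The 26 matches began 23 to 87 bases before the start (median 57). Pairwise alignment, with gaps at the ends free and left out of the count, gave 63.4 to 91.9% identity over the 120 pairs of these 16 promoters. The median was 80.9%, so the shared letters are not independent of common descent. Listed zinc finger genes of the long arm had a median identity of 49.4% over 21 pairs.

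ZNF274, whose protein binds the ends of other zinc finger genes, has a promoter of another kind, shown because its window passed a test described further on. It lies at chr19:58182811-58183060 on the plus strand of GRCh38.p14, and capitals mark the reverse complement of the ETS-type letters CCGGAAGT.
ZNF274: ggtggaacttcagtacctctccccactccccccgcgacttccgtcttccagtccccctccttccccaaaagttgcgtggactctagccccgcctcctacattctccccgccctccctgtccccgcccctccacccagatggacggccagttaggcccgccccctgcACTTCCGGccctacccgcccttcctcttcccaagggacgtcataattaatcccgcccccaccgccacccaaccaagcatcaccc
CCGGAAGT on either strand stood in 34 of 287 promoters (11.8%) of chromosome 19 genes with zinc finger names and in 4.41% of all promoters, and none of the 16 pericentromeric promoters held it. GGGCGG on either strand stood in 61.7% and 53.7% of the same groups, and in 11 of the 16 pericentromeric promoters (68.8%). TATAAA on either strand stood in 2.79% and 9.01%, but in 3 of the 16 pericentromeric promoters (18.8%). None of these motifs contains another, and a match is not a bound site.

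Peaks were sparse near the centromere and denser toward the end of the long arm. There were 11.1 regions per Mb in the pericentromeric span, 17.1 in the proximal, 22.5 in the middle and 33.9 in the distal span. Of 142 windows of 100 kb, 44 held no peak in any clone. The longest empty stretch ran from 22.1 to 23.2 Mb, where ZNF208, ZNF257, ZNF676 and ZNF98 lie, so the ZNF208 promoter printed above stands in a window at 0 in all 6 clones. By contrast, the window of ZNF85 had 1311 and 1269 covered bases in WT, 1144 and 1243 in CREBBP-KO, and 1268 and 1250 in EP300-KO. Near-identical paralogues can lose reads at mapping, and the part of this in the empty windows was not tested.

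The regions of the clusters lay farther apart by the median gap, and those held by all 6 clones were shorter than elsewhere. Over all merged regions the median length was 512 bases in the clusters, 489.5 on the rest of chromosome 19 and 481 in the series. All 6 clones held 61.9% of them, against 55.5% on the rest of chromosome 19 and 44.8% in the series. The median covered length of such regions was 508.2 bases in the clusters, 660.2 on the rest of the chromosome and 835.5 in the series. Regions that covered over 2000 bases made up 1.77%, 4.89% and 6.81% in the same order. Neighbouring regions lay a median of 11471 bases apart in the clusters and 1335 bases apart on the rest of the chromosome. Gaps under 5 kb made up 43.6% in the clusters and 61% on the rest of the chromosome. The authors' score ranked cluster peaks at median percentiles of 58.2 to 66.8 within the 6 lists, against 58.1 to 62.9 for the rest of the chromosome. The first WT clone alone held 19 of the 38 regions found in a single clone, and it had the longest list (46940 peaks, 35054 to 41099 in the other 5).

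**Figure D1:**
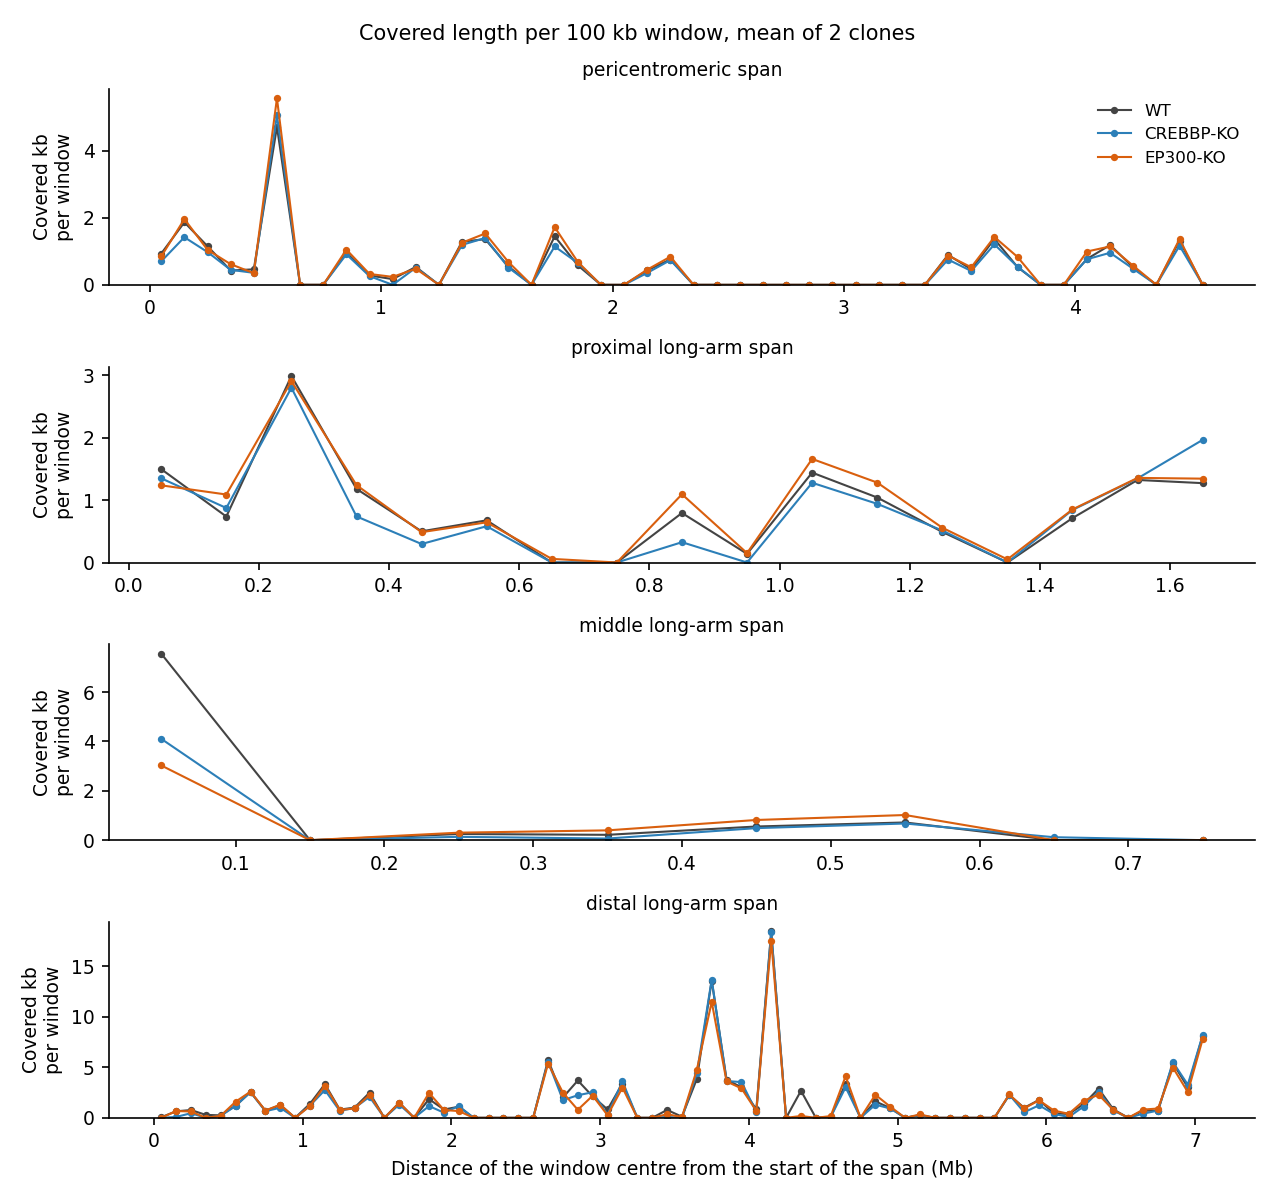
Covered length in kb per 100 kb window against distance from the start of each span in Mb, as the mean of 2 clones per genotype (lines and points). Long stretches of the pericentromeric and distal spans are at 0 in every genotype, and the first window of the middle span is higher in WT than in either knock-out.

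The most covered regions of each span were held by all 6 clones, and most of them varied little. At 20380614 to 20385038 the pericentromeric span had its widest region, with 3112 and 4163 covered bases in WT, 4019 and 4184 in CREBBP-KO, and 4413 and 4339 in EP300-KO. Both EP300-KO clones lay above both WT clones there, but limma's adjusted p was 0.17 (log2 difference 0.48, SE 0.17). The region at 19976602 to 19977682 ranked highest by score in that span (mean percentile 92). On the proximal long arm the widest regions lay at 36979600 to 36981733 (1702 ± 118 covered bases in WT, mean ± SD, n = 2) and at 36908565 to 36909919 (1282 ± 64.3), while the best score rank stood at 36705541 to 36706772. On the middle long arm the region at 44258078 to 44259801 led in score and held 1673 ± 72.1 bases in WT, 1394 ± 31.8 in EP300-KO and 1556 ± 14.1 in CREBBP-KO. On the distal long arm the region at 55763885 to 55769798 covered 5599 ± 156, 5202 ± 209 and 5784 ± 163 bases in the same order, and the one at 56152093 to 56157156 covered 4654 ± 4.95, 4616 ± 128 and 4798 ± 134. The latter lies in the window of U2AF2, a splicing factor gene, as does the best-scored region of the span (56165182 to 56169532). In none of the last 3 regions did a contrast pass.

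In the EP300-KO clones the covered length of the clusters was near that of the WT clones, while that of the rest of the chromosome was below it. The clusters had 181.2 and 160.9 kb in the WT clones, 163.2 and 160.6 kb in EP300-KO, and 139.8 and 166.8 kb in CREBBP-KO. The EP300-KO values lay close to the lower WT clone. The rest of chromosome 19 had 1300 and 1237 kb in WT, 1074 and 1327 in CREBBP-KO, and 1042 and 1065 in EP300-KO, where both clones lay below both WT clones. As a share of all covered bases of the chromosome the clusters made up 12.2% and 11.5% in WT, 11.5% and 11.2% in CREBBP-KO, and 13.5% and 13.1% in EP300-KO. Both EP300-KO clones were above the other 4.

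**Figure D2:**
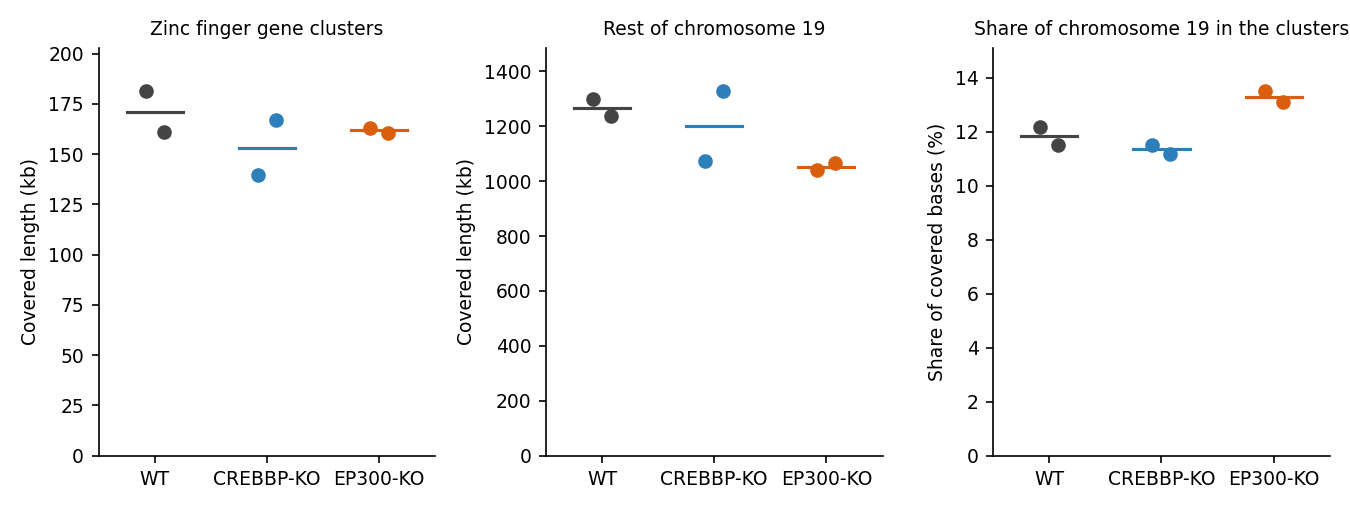
Covered length in kb of the clusters (left) and of the rest of chromosome 19 (middle), and the share of the chromosome's covered bases that lies in the clusters in percent (right), with 1 point per clone and a line at the mean of 2 clones. The 2 EP300-KO clones have the highest shares, 13.5% and 13.1%, with cluster lengths of 163.2 and 160.6 kb.

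The log2 ratio of the clusters to the rest of the chromosome was -2.84 and -2.94 in the WT clones, -2.94 and -2.99 in CREBBP-KO, and -2.67 and -2.73 in EP300-KO. EP300-KO was higher than WT by 0.19 (1.14-fold), with no overlap of the clones and a two-sided exact permutation p of 0.333 (0.5 adjusted over the 3 contrasts), the smallest p this design allows. CREBBP-KO minus WT was -0.07, with overlapping clones (exact permutation p = 0.667). CREBBP-KO minus EP300-KO was -0.27, again with no overlap and an exact permutation p of 0.333. Counted by number of peaks, the EP300-KO difference from WT shrank to 0.07, and without the distal span it was 0.27.

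The 4 spans did not share this pattern, and no span alone could pass a test with 2 clones a genotype (in the ratio to the rest of the chromosome, EP300-KO and WT clones did not overlap in any span, each with a two-sided exact permutation p of 0.333). In the pericentromeric span EP300-KO stood above WT in plain covered length, with 27.51 and 27.28 kb against 26 and 23.98 kb, and CREBBP-KO had 21.14 and 24.76 kb. Relative to the rest of the chromosome this was a log2 difference of 0.40 for EP300-KO and -0.04 for CREBBP-KO. In the proximal long-arm span the values were 14.76 and 14.78 kb for WT, 12.49 and 15.17 kb for CREBBP-KO, and 16.78 and 15.18 kb for EP300-KO, a relative difference of 0.38 for EP300-KO. In the distal span the relative difference was 0.16, from 130.2 and 113.9 kb for WT, 102.1 and 119.8 kb for CREBBP-KO, and 113.9 and 112 kb for EP300-KO.

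**Figure D3:**
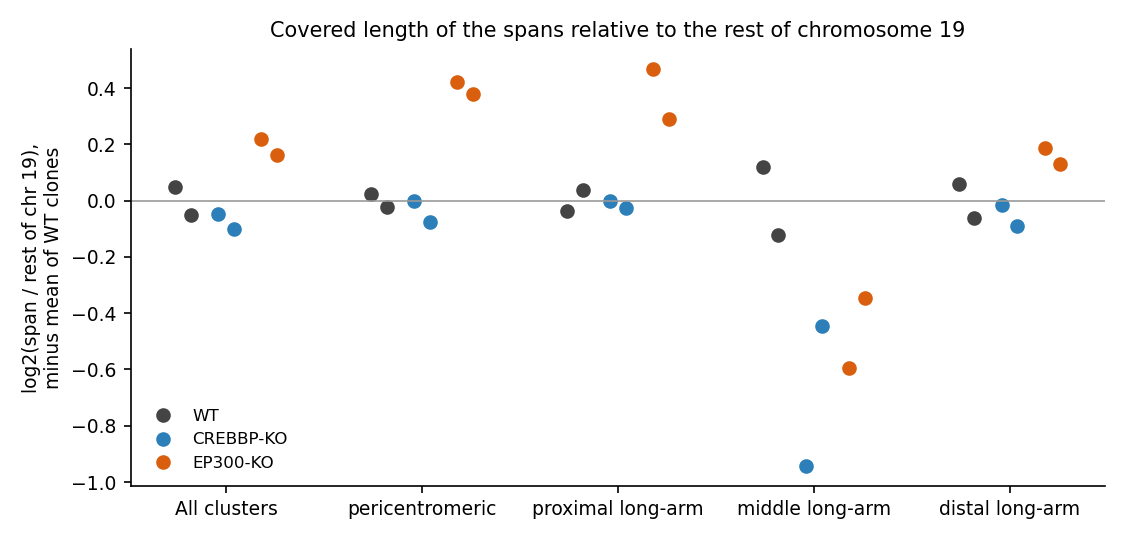
Log2 ratio of covered length in all clusters and in each span to the rest of chromosome 19, minus the mean of the WT clones, with 1 point per clone. EP300-KO points lie above the WT points in all but the middle span, where both knock-outs lie below WT.

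The middle span went the other way, with 10.29 and 8.285 kb for WT, 4.069 and 7.102 kb for CREBBP-KO, and 5.019 and 6.107 kb for EP300-KO. Relative to the rest of the chromosome the log2 differences from WT were -0.69 for CREBBP-KO and -0.47 for EP300-KO. Its first window, 44.2 to 44.3 Mb, singled out after its values were seen, held 71.8% of the span's covered bases over the clones. That window had 8208 and 6899 covered bases in WT, 2551 and 5657 in CREBBP-KO, and 2562 and 3490 in EP300-KO, with limma's adjusted p at 0.076 for EP300-KO (log2 difference -1.10) and 0.30 for CREBBP-KO (-0.87). The other windows of the span together had 2086 and 1386 bases in WT, 1518 and 1445 in CREBBP-KO, and 2457 and 2617 in EP300-KO. There the EP300-KO clones were above both WT clones. Inside the first window the region at 44282472 to 44284448, the widest of the span, had 1903 and 1818 bases in WT, 151 and 1357 in CREBBP-KO, and 237 and 558 in EP300-KO, and did not pass the test (adjusted p = 0.21 and 0.61).

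Whole regions that came or went with a genotype were then counted. EP300-KO lacked, in both clones, 16 of the 254 cluster regions that both WT clones held (6.3%), while on the rest of the chromosome it lacked 153 of 1469 (10.4%) and in the series 14.8%. It gained 4 regions, or 1.59% of the 251 held by both of its clones, against 2.13% and 3.33%. CREBBP-KO lacked 15 of the 254 (5.91%), against 4.7% on the rest of the chromosome and 4.94% in the series. It gained 1 region, or 0.442% of those held by both of its clones, against 1.08% and 2.2%. Since short regions are lost more often, the shares were also set at the clusters' mix of covered lengths. At that mix EP300-KO lacked 11.3% on the rest of the chromosome and 18.3% in the series, both above the 6.3% of the clusters. CREBBP-KO lacked 4.88% and 5.97%, so its 5.91% in the clusters was near the background. Regions under 250 bases gave 9 of the 16 and 9 of the 15. With 1 clone left out, presence or absence was asked of 1 list only in its genotype, and the counts were higher. Without the second WT clone, presence in the first WT clone alone sufficed, and 37 were lost in EP300-KO and 47 in CREBBP-KO. Without the second CREBBP-KO clone 34 were lost there. The gains were 9 to 17 in EP300-KO and 3 to 13 in CREBBP-KO when any 1 clone was left out.

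The direct comparison of the knock-outs had the reverse balance in the clusters from that on the rest of the chromosome. Of 251 cluster regions held by both EP300-KO clones, CREBBP-KO lacked 21 (8.37%), against 3.24% on the rest of the chromosome and 5.34% in the series. At the clusters' mix of covered lengths in EP300-KO these backgrounds were 3.66% and 6.86%, the latter nearer the 8.37%. Regions under 250 bases gave 14 of the 21. The shares missing from EP300-KO were not set at such a mix. Of those held by both CREBBP-KO clones, EP300-KO lacked 6 (2.65%), against 6.56% and 11.5%. At equal list length the counts were 21 and 6 in the clusters and 42 and 85 on the rest of the chromosome. With peaks joined across 500 bases they were 12 and 4 in the clusters, without the second CREBBP-KO clone 33 were missing from CREBBP-KO, and without the first 20 were missing from EP300-KO. No test of this difference between sets of regions was made.

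**Figure D4:**
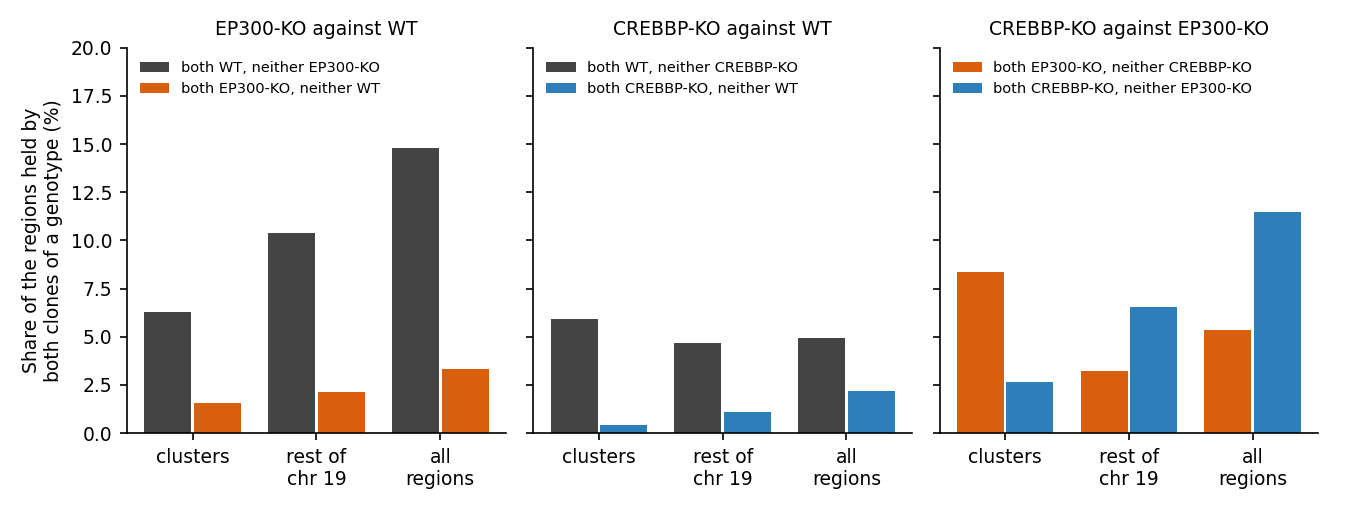
Share in percent of the regions held by both clones of 1 genotype that neither clone of the other held, for the clusters, the rest of chromosome 19 and all regions, in 3 comparisons. In CREBBP-KO against EP300-KO the clusters have 8.37% missing from CREBBP-KO and 2.65% missing from EP300-KO, and the other 2 sets have the larger share on the other side.

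The widest regions lost lay in 1 stretch of the distal span, inside the window 56300001 to 56400000. The region at 56366206 to 56367669 had 1464 and 723 covered bases in WT and none in the 4 knock-out clones. The region at 56370195 to 56371114 had 920 and 351 in WT and none in the knock-outs. Between them, the region at 56368799 to 56369418 had 620 and 420 in WT, none in CREBBP-KO, and 245 and 119 in EP300-KO. In all 3 the first WT clone had more than the second. The third wide region lost in EP300-KO, at 54881706 to 54882456, had 751 and 304 bases in WT, 337 and 317 in CREBBP-KO, but 0 in both EP300-KO clones. It lies in the window of LAIR1. Regions gained were short. In EP300-KO the 3 widest of the 4 lay at 56856866 to 56857336 (471 and 102 bases), 56857526 to 56857795 (270 and 175) and 55678196 to 55678406 (189.5 ± 30.4, mean ± SD, n = 2), and in CREBBP-KO at 44808925 to 44809092 (117 and 122), with 0 in the other 4 clones. The gain at 55678196 lies in the window of PPP1R12C, the gene edited in the WT clones.

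For levels, covered bases were compared with limma on log2(covered bases + 100) over the 19860 regions that reached 500 covered bases in 2 clones or more, among them 135 of the 339 cluster regions. Such a filter keeps regions that are wide in 1 genotype, so counts over the 135 describe and do not represent all members. In EP300-KO against WT 1 cluster region fell and 3 rose, where 6.13% of all regions fell and 1.21% rose. On the rest of the chromosome 27 of 852 fell and 4 rose. In CREBBP-KO against WT no cluster region passed limma's adjusted threshold, and 0.0101% of all regions did in either direction. Unadjusted limma p was under 0.05 in 10 cluster regions (7.41%), against 8.83% of all regions tested. In CREBBP-KO against EP300-KO 7 cluster regions were lower and none higher, where 1.9% of all regions were lower and 7.21% higher, and on the rest of the chromosome 13 were lower and 26 higher. Leaving out the first EP300-KO clone left 0 calls in both contrasts with EP300-KO. Of the 4 calls in EP300-KO against WT, 2 remained without the first CREBBP-KO clone, and 1 remained without the second EP300-KO clone or without either WT clone. Of the 7 in CREBBP-KO against EP300-KO, 2 remained without either CREBBP-KO clone and 3 without the second EP300-KO clone, where 1 other region was called higher in CREBBP-KO. The 3 contrasts share clones.

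The 135 regions had a median log2 difference of 0.19 between EP300-KO and WT, and 84.4% were above 0. The median was 0.10 on the rest of the chromosome and 0.06 over all regions, where 56.9% were above 0. Centring each clone on its median over shared regions shifts this scale: the amounts subtracted were 0.117 and 0.0427 for the WT clones and -0.13 and -0.114 for the EP300-KO clones. Without centring the median of the cluster regions was -0.01, so these differences are relative to the typical region and no absolute rise of the clusters was measured. In plain covered bases both EP300-KO clones lay above both WT clones in 38 of the 135 regions (28.1%), where the background was 9.82%, and below them in 30 (22.2%), where it was 50.4%. Both CREBBP-KO clones lay above both WT clones in 13 (background 16.2%) and below in 34 (background 17.6%). Against EP300-KO they lay above in 28 (background 46.4%) and below in 47 (background 12.4%).

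The 8 regions that passed in any contrast were of modest width, and 7 were higher in EP300-KO than in CREBBP-KO. At 53822802 to 53823840 the covered bases were 523 and 304 in WT, 0 and 0 in CREBBP-KO, and 1002 and 1017 in EP300-KO. WT stood between the knock-outs, and only the difference between these passed (adjusted p = 0.0074). At 54789050 to 54790276 the values were 370 and 191 in WT, 165 and 245 in CREBBP-KO, and 1096 and 1104 in EP300-KO. EP300-KO rose there against WT by 1.90 on the log2 scale (SE 0.27, adjusted p = 0.02), with adjusted p from 0.011 to 0.049 over 12 alternatives. The region entered the fit only through the EP300-KO clones, and without either of them it fell below the filter and had no value, so its dependence on those clones was not tested. This region lies in the window of RPS9, a ribosomal protein gene.

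The region at 37568532 to 37569720 is the one on the proximal long arm. Its covered bases were 827 and 758 in WT, 367 and 283 in CREBBP-KO, and 1189 and 996 in EP300-KO, so the 3 genotypes did not overlap. The log2 difference of CREBBP-KO from EP300-KO was -1.65 (SE 0.22, adjusted p = 0.016). Near the end of the chromosome, at 59065383 to 59067004, in the window of TRIM28, the corepressor that KRAB domains bind, the values were 1227 and 1196 in WT, 1055 and 1142 in CREBBP-KO, and 1521 and 1487 in EP300-KO. EP300-KO was higher than WT by 0.49 (SE 0.095, adjusted p = 0.043), a call lost in 9 of 14 alternatives. The whole TRIM28 window did not follow, at 8299 and 7957 bases in WT, 7420 and 8936 in CREBBP-KO, and 7668 and 7897 in EP300-KO.

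At 56623221 to 56624674 EP300-KO had 1442 and 1180 bases, WT 949 and 787, and CREBBP-KO 736 and 948. The difference of EP300-KO from WT was 0.74 (SE 0.14, adjusted p = 0.04) and was lost in 8 of 14 alternatives. The regions at 57901210 to 57901895 and 58238073 to 58239159 passed between the knock-outs alone, with 278.5 ± 20.5 and 509.5 ± 20.5 bases (mean ± SD, n = 2) in CREBBP-KO, 618.5 ± 95.5 and 951 ± 141 in EP300-KO, and 525.5 ± 75.7 and 758 ± 58 in WT. The one region that fell in EP300-KO was the lost one at 56366206 (log2 difference -3.30, adjusted p = 0.049). Its size depends on the value of 100 added before the logarithm. CREBBP-KO, also at 0 in both clones, did not pass against WT there (limma's adjusted p = 0.27). The region entered the fit only through the WT clones. Without either of them it had no value, so the dependence of the EP300-KO call on those clones was not tested. Leaving out either EP300-KO clone, or quantile normalization, ended that call, with adjusted p from 0.0078 to 0.38 over 12 alternatives. All these calls came from limma with Benjamini-Hochberg adjustment over all regions.

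**Figure D5:**
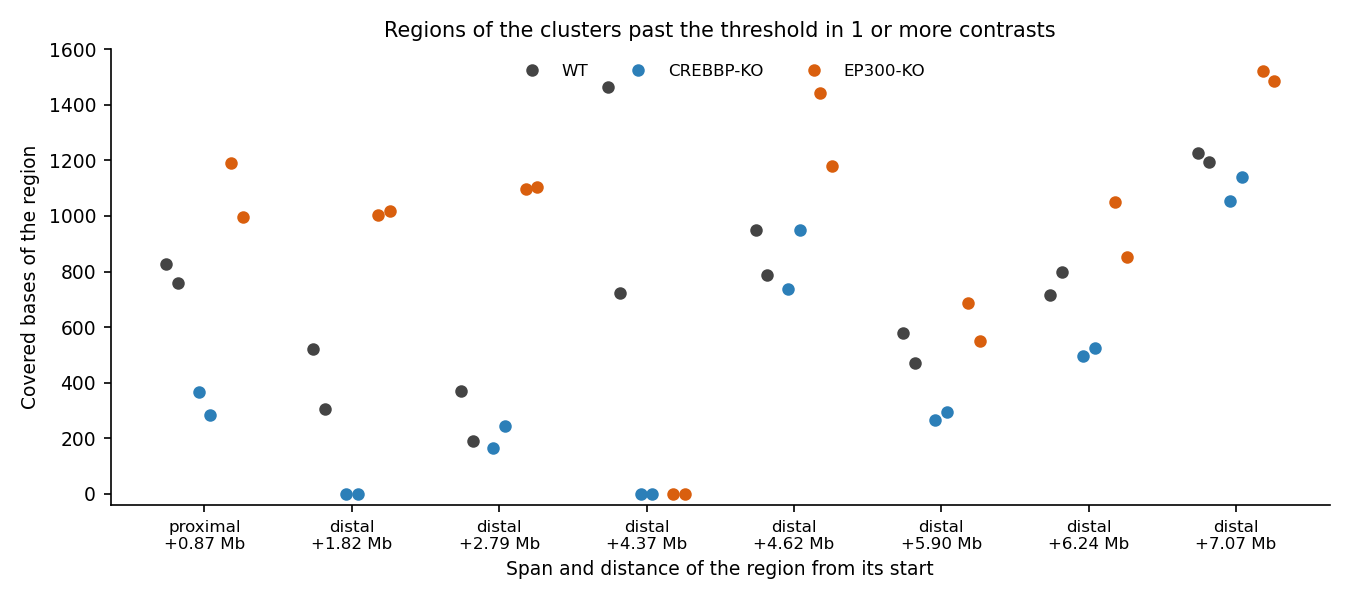
Covered bases per clone in the 8 cluster regions past the threshold in any contrast, labelled by span and distance from its start in Mb. The EP300-KO mean is the highest in 7 of them, and in the eighth, at 0 in all knock-out clones, the WT clones have 1464 and 723 bases. At 57901210 to 57901895 the second EP300-KO clone (551 bases) lies below the first WT clone (579).

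Genes were read through windows of 100 kb, since no annotation of hg19 was at hand, so each value belongs to everything in the window. Of 8413 windows tested 80 lay in the clusters. Between EP300-KO and WT 2 cluster windows were lower (background 6.2%) and 1 higher (background 2.03%). Between CREBBP-KO and WT none passed in limma (background 0.0238% in either direction). Unadjusted limma p was under 0.05 in 12 cluster windows (15%), against 13.7% of all windows tested. Between CREBBP-KO and EP300-KO 10 were lower (background 3.67%) and 0 higher (background 9.27%). Of these 10, none was left without either CREBBP-KO clone or without EP300-KO clone 1, while 2 were left without EP300-KO clone 2 and 2 without centring. The 3 calls against WT came to 0 without either EP300-KO clone and 1 without either CREBBP-KO clone or the first WT clone, and to 7 under quantile normalization. Without the second WT clone 1 window passed between CREBBP-KO and WT.

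Of the 19 listed pericentromeric zinc finger genes, 14 windows entered the fit, and EP300-KO lay above WT in all 14 (median log2 difference 0.39), where 86.2% of cluster windows and 57.9% of those on the rest of the chromosome did. None of the 14 passed against WT. Without centring 11 of the 14 were above 0 (median 0.18). Between CREBBP-KO and EP300-KO all 14 were below 0 with and without centring (median -0.38 and -0.27). Of all cluster windows tested 16.2% were above 0 with centring and 25% without, and on the rest of the chromosome 47.6% and 59.4%. Of the 14 windows 2 passed, where 10 of the 80 cluster windows did. The second ZNF708 window (the first held no peak; the promoter is printed above) had 1534 and 1366 bases in WT, 1117 and 1174 in CREBBP-KO, and 1705 and 1743 in EP300-KO. The knock-outs lay on either side of WT, and their log2 difference was -0.66 (SE 0.13, adjusted p = 0.033). In the ZNF253 window the values were 1929 and 1808 in WT, 1205 and 1639 in CREBBP-KO, and 2039 and 1888 in EP300-KO (-0.56, SE 0.11, adjusted p = 0.032).

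Other windows of this group gave values without passing. The ZNF91 window, of a gene whose protein binds SVA retrotransposons, had 562 and 497 bases in WT, 572 and 510 in CREBBP-KO, and 1016 and 650 in EP300-KO. The ZNF430 window had 1459 and 1266, 1298 and 1501, and 1554 and 1513 in the same order. In the ZNF93 window, of a gene whose protein binds LINE-1 elements, WT was highest in plain bases, with 1153 in both clones, 932 and 1026 in CREBBP-KO, and 1058 and 1035 in EP300-KO. The ZNF626 window was too low for the fit, at 160 and 182 bases in WT, 0 in both CREBBP-KO clones, and 237.5 ± 34.6 (mean ± SD, n = 2) in EP300-KO.

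Of the 9 listed zinc finger genes of the long arm, 7 windows entered the fit. Their median log2 difference between EP300-KO and WT was 0.39, with 6 of 7 above 0 (85.7%, against 86.2% of all cluster windows tested). Without centring the median was 0.18, again with 6 of 7 above 0. The first window of ZNF274 had 835 and 598 bases in WT, 337 and 487 in CREBBP-KO, and 825 and 806 in EP300-KO. CREBBP-KO was lower than EP300-KO there (log2 difference -0.96, SE 0.21, adjusted p = 0.039), while the next window of the same gene did not pass (-0.42, adjusted p = 0.27). The window of ZNF331 went the other way, at 1020 and 1174 in WT, 848 and 1478 in CREBBP-KO, and 668 ± 171 (mean ± SD, n = 2) in EP300-KO (-0.45 against WT, adjusted p = 0.31). The windows of ZNF568 and PEG3 were at 0 in all clones.

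The further windows that passed between the knock-outs with the largest differences began at 52100001, 37500001, 53800001, 56800001 and 58200001. The first had 927 and 363 bases in WT, 0 and 173 in CREBBP-KO, and 798 and 544 in EP300-KO. The window from 53800001 had 2106 and 1596, 1125 and 1203, and 2497 and 2431 in the same order, with the smallest adjusted p of all cluster windows (0.011). The window from 37500001 holds a single region, described above, and repeats its values.

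Windows of genes outside the zinc finger family gave 2 calls between EP300-KO and WT. The LAIR1 window, of an inhibitory receptor of leukocytes, had 5020 and 2362 bases in WT, 2275 and 2190 in CREBBP-KO, and 670 and 923 in EP300-KO. EP300-KO fell by 1.79 on the log2 scale (SE 0.33, adjusted p = 0.033), and the call was lost in 6 of 13 alternatives. The PPP1R12C window had 4211 and 3465 bases in WT, 4063 and 4758 in CREBBP-KO, and 4572 and 4913 in EP300-KO, a rise of 0.51 (SE 0.10, adjusted p = 0.04). The controls carry the edit in this gene, so its part in that rise cannot be told apart from the knock-out, and the call was lost in 9 of 13 alternatives. The third call was the window of the lost stretch from 56300001 (3690 and 1661 bases in WT, 245 and 119 in EP300-KO, 0 in both CREBBP-KO clones, with limma's adjusted p = 0.023 for EP300-KO). Its log2 difference of -3.03 depends on the pseudocount, with -3.56 at 10 and -1.43 at 1000. This window entered the fit only through the WT clones. Without either of them it had no value, so its dependence on those clones was not tested. None of the windows of U2AF2, PRPF31 and PPP2R1A passed between EP300-KO and WT. Their log2 differences were 0.12 to 0.23 with centring, while plain covered bases were 18673 and 18201 in WT against 17602 and 17455 in EP300-KO for U2AF2, and 6006 and 5431 against 5063 and 5663 for PRPF31.

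Checks of the cell type rested on fixed windows. Those of the B-lineage genes CD22, CD79A, POU2F2, CD37 and SPIB on the rest of the chromosome were covered in all 6 clones, with 51.1 to 73.3 kb summed over their 6 windows. Of these CD22 fell in EP300-KO (-0.71, adjusted p = 0.026). Inside the spans the killer-cell receptor windows and those of the placental microRNA cluster C19MC were at 0 in all clones. The window of FPR1 and FPR2, receptors of myeloid cells, had 373 to 1005 bases. On the rest of the chromosome the window of the epithelial gene CEACAM5 was at 0, but that of the liver gene CYP2A6 had 2053 to 3185 bases and that of the prostate gene KLK3 had 1531 to 2079, and each window also holds other genes.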

How the data were processed

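H3K27ac ChIP-seq lists of 6 SUDHL4 clones were used, and the 6 inputs entered only through them. Bowtie2 2.1.0, SAMtools 0.1.19, CASAVA 1.8 and the build hg19 were used, per the submitters' processing notes. Every list belongs to 1 clone and names that clone's input as its control, per the file headers. The peak-calling program was not given in the sources used here, and the depth of each library is unknown. The deposited starts and ends are genome positions, and starts were read as counted from 0, which leaves 1 base of uncertainty. The deposited score per peak is the authors' own value, without a stated meaning, and served only to rank peaks within a list.

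Covered bases per merged region and per 100 kb window entered limma 3.58.1 under R 4.3.3 as log2(covered bases + 100), with clones centred on their median over features covered in all 6, 500 bases in at least 2 clones, a mean-variance trend, 1 spread for all clones, and Benjamini-Hochberg adjusted p under 0.05. The trend was chosen with both outcomes known. Sums over the clusters were compared by exact permutation. The fit was tested on simulated data with equal noise and only for regions well covered in WT. That test does not reach calls at regions empty in a genotype. Promoters were aligned with biotite 1.4.0. Of 47 listed loci 43 matched the gene table by symbol, with none out of order, and their hg19 windows are general knowledge. Named regions were the 2 widest in WT and the best-scored of each span, those called by limma, and up to 3 lost and 3 gained per knock-out, and named windows were up to 6 called per contrast and direction. The members and lists were chosen with earlier results of these data known. Alternatives covered score minimum, list length, measure, comparison sequence, spans, overlap, joining, pseudocount, filter, centring, samples and single clones. Genes were not assigned to regions, because no annotation of hg19 was used here.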

Additional observations from a re-analysis of the deposited data

Results flagged for a closer look

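The effects of the 2 knock-outs differed in these places of the clusters by limma's test of the difference between them (adjusted p under 0.05), in every case with CREBBP-KO lower than EP300-KO. Among regions the log2 differences were -3.64 at 53822802 to 53823840, -2.15 at 54789050 to 54790276, -1.65 at 37568532 to 37569720, -1.08 at 57901210 to 57901895, -0.94 at 58238073 to 58239159, -0.75 at 56623221 to 56624674 and -0.59 at 59065383 to 59067004. Among windows of 100 kb they were -2.31 from 52100001, -1.6 from 37500001, -1.13 from 53800001, -0.96 in the first ZNF274 window, -0.88 from 56800001, -0.67 from 58200001, -0.66 in the ZNF708 window, -0.59 in the RPS9 window, -0.56 in the ZNF253 window and -0.54 from 56600001. The first of these regions had no covered base in CREBBP-KO, so its size depends on the pseudocount. So does that of the window from 52100001, with 0 and 173 bases in CREBBP-KO. Its log2 difference was -4.08 at a pseudocount of 10, where it did not pass (limma's adjusted p = 0.11), and -0.7 at 1000. Windows and the regions inside them are the same peaks counted again.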

How the results depend on the processing

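Another score minimum or equal list length changed no value of the cluster-to-chromosome ratio by more than the spread between clones. Counted by number of peaks, the ratio's log2 difference was 0.07 for EP300-KO and -0.13 between CREBBP-KO and EP300-KO, and without the distal span these were 0.27 and -0.4, with -0.13 for CREBBP-KO against WT. Between the knock-outs it was -0.36 against the rest of the genome. It was -0.31 with a stretch around the control edit left out that is wider than its 100 kb window. With peaks joined across 500 bases, EP300-KO lost 8 and gained 2 regions, and CREBBP-KO lacked 12 of those in EP300-KO. CREBBP-KO gained 2 at equal list length and 3 where 50% of a region had to be covered, which also gave 11 missing from EP300-KO but not from CREBBP-KO. Leaving out each clone in turn gave 20 to 37 lost and 9 to 17 gained in EP300-KO, 17 to 47 lost and 3 to 13 gained in CREBBP-KO, and 25 to 33 and 7 to 20 between the knock-outs.

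Cluster regions called by limma in EP300-KO against WT numbered 2 without centring, 2 under quantile normalization, and 0 to 3 with 1 clone left out. Between the knock-outs they numbered 4 under quantile normalization and 0 to 8 with 1 clone left out. Called windows in EP300-KO against WT numbered 7 under quantile normalization and 0 to 2 with 1 clone left out, and between the knock-outs 2 without centring and 0 to 11 with 1 clone left out. CREBBP-KO against WT gave 0 to 1 called windows with 1 clone left out. A fit without a mean-variance trend, added after seeing the data, called 1 region and 1 window in CREBBP-KO against WT, 1 window in EP300-KO against WT and 5 between the knock-outs. The cause of these changes was not tested. No called region or window changed sign in the alternatives that gave it a value, but the median of the tested cluster regions in EP300-KO against WT went from 0.19 to -0.01 without centring. With 1 clone left out, the lone clone is assumed to vary like the others. No paired analysis was possible because the labels give the clones no shared replicate numbers, and those used here follow accession order. Library depth is unknown, and a peak list holds nothing below its own threshold, so a missing peak is not absence of acetylation.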
